A study of Mus musculus with 4 samples.

Results

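The 10 genes described here are long noncoding RNAs and host genes of small nucleolar RNAs (snoRNAs): Malat1, Neat1, Miat, Gas5, Snhg1, Snhg3, Snhg6, Snhg8, Snhg11 and Snhg12. They were chosen by symbol, after the Ensembl identifiers of the deposited files were matched to the GENCODE M21 mouse annotation, and all 10 were present among 25261 identifiers. The libraries were made from total RNA of neural stem cells of C57BL/6 mice aged 8 weeks. Cells labelled shOGT (2 libraries) were infected with a lentivirus expressing a short hairpin RNA against mouse Ogt, and cells labelled ctrl (2 libraries) with one expressing a scrambled hairpin, so both groups carry a lentivirus. Ogt encodes O-GlcNAc transferase, the enzyme that attaches N-acetylglucosamine to serines and threonines of nuclear and cytoplasmic proteins. Nothing in the labels tells separate cultures from repeat libraries within a group, so the p-values cover the spread between these libraries alone, and that spread may be technical.

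Long noncoding RNAs are transcribed by RNA polymerase II but are not known to act through a protein product. Malat1 is retained in nuclear speckles, bodies rich in splicing factors, and Neat1 is the scaffold of paraspeckles, nuclear bodies that hold RNA-binding proteins. The Snhg genes and Gas5 carry snoRNAs in their introns; the snoRNAs guide the modification of ribosomal and spliceosomal RNA, while the spliced exons of several hosts are unstable because translating ribosomes expose them to nonsense-mediated decay.

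Each deposited value is a whole multiple of a library-specific step between 0.9427 and 1.063, within 0.01 of a whole number, and the values sum to between 16689493 and 16953670 per library. The 10 genes together made up 0.272% and 0.247% of the shOGT libraries, against 0.262% and 0.229% of the ctrl libraries. Nearly all of this was Malat1, at 0.242% and 0.216% in shOGT against 0.235% and 0.202% in ctrl. Ogt, the target of the hairpin, had values of 3379 and 3516 in shOGT, against 4112 and 4138 in ctrl (log2 fold change -0.26 ± 0.04, SE; limma adjusted p = 0.00876). The 7 neural stem cell markers Sox2, Nes, Pax6, Sox9, Fabp7, Vim and Mki67 were all tested, and their values summed to 87924 and 89141 in shOGT, against 93812 and 96498 in ctrl. Of these, Fabp7 was lower, by a log2 fold change of -0.49, and 0 were higher. Of 5 astrocyte markers 2 were lower, with sums of 12556 and 13253 in shOGT against 14875 and 14635 in ctrl, and of 5 tested oligodendrocyte lineage markers 1 was lower, with sums of 20487 and 19994 in shOGT against 19511 and 19629 in ctrl. That sum was nearly all Olig2, while the called gene Pdgfra, a receptor of oligodendrocyte precursors, had 132 and 137 in shOGT against 287 and 303 in ctrl; Mbp had 18.1 and 15.1 in shOGT against 32.9 and 27.8 in ctrl, and was not called. The ependymal gene Foxj1 had 731 and 677 in shOGT, against 558 and 620 in ctrl (limma adjusted p = 0.0953), and Ccdc153 at most 33.0 in any library. The microglial gene Aif1 had at most 2.13 in any library, and the endothelial genes Pecam1 and Kdr at most 5.66 and 22.3. The part of these markers in the results was not tested. Fewer cells of a type and less RNA per cell cannot be told apart in these bulk libraries.

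Snhg11 and Neat1 were higher in shOGT, by 1.56-fold and 1.29-fold, and these were the 2 called of the 10 genes; 0 were called lower. Across all 21829 genes tested, 1.96% were called higher and 2.9% lower (limma on log2(value + 1), Benjamini-Hochberg adjusted p under 0.05), or 427 and 633 genes. When libraries were rescaled to equal totals those counts were 593 higher and 585 lower. With no filter on low values, with quantile normalization or with no variance trend, limma called 0 genes in either direction, the 2 included. At an unadjusted p under 0.05, 4 of the 10 were higher and 2 lower, against 9.02% higher and 10.3% lower of all genes tested. In 6 of the 10 both shOGT libraries lay above both ctrl libraries, in 2 they lay below, and in 2 the groups overlapped, against 25% above and 24.3% below across all genes tested. Among the 185 noncoding genes with a mean value of at least 100, which are closer to the 10 in kind and level, 2.7% were called higher and 1.08% lower, and the groups did not overlap in 34.6% upward and 22.7% downward. At an unadjusted p under 0.05, 32 of the 185 were higher and 15 lower. The 185 include the 10 genes except Snhg11, annotated as protein coding, and Snhg3, whose mean is too low. The median log2 fold change of the 10 was 0.16, against 0.04 for the 185 and 0.00 over all genes tested. One of the 6 is Snhg3, with a few steps per library; without it 5 of 9 lay above and the median was 0.14. An exact permutation test on a single gene with 2 against 2 libraries cannot go below p = 0.333 (two-sided). The p-values given here come from limma, which shares the spread between genes.

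**Figure D1:**
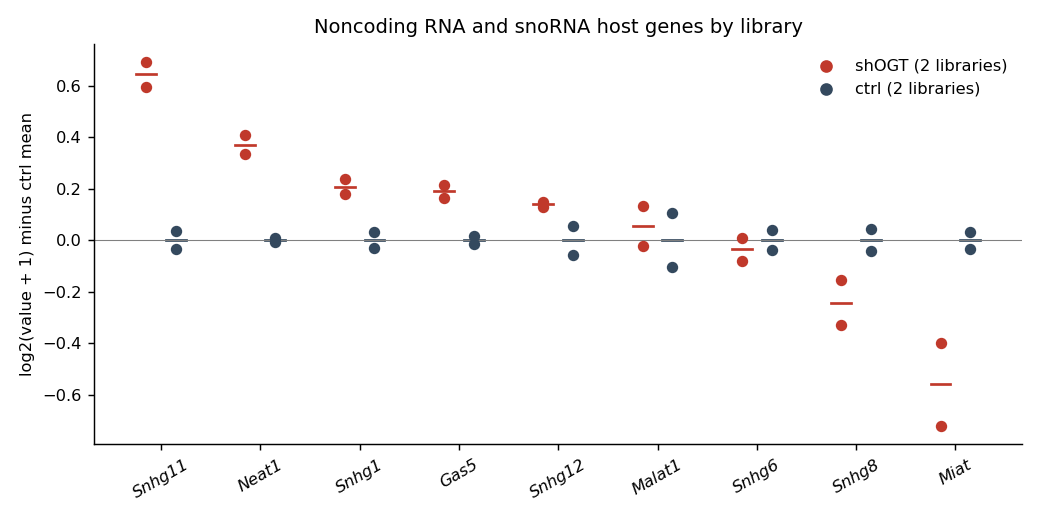
Value of each gene in each library on the log2(value + 1) scale, minus the mean of its 2 ctrl libraries; points are libraries (shOGT red, left; ctrl dark, right), short lines are group means and genes are ordered by log2 fold change. Snhg11 and Neat1 stand highest above their ctrl libraries, Miat and Snhg8 lie below theirs, and Snhg3 is not drawn because its values are at most 4.71.

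The level of each gene is given per kilobase of merged exons, which allows for length only as annotated. Snhg1, Snhg8 and Snhg12 each merge into 1 exon block that spans their snoRNA genes, and 1 block of Gas5 spans all of its own. The lengths of these genes may thus hold intron bases. Neat1 is divided by 20771 bp, the length of its longest transcript. The order of these genes therefore depends on the annotation and need not be the order of their transcript levels. Malat1 was the highest, at 5480 ± 416 per kb in shOGT and 5282 ± 541 per kb in ctrl (SD, n = 2 each). It ranked 81 of 21829 genes by level per kb and 16 by total value. Its level per kb over all 4 libraries was 7.8 times that of the next of the 10, Snhg6. The order below it was Snhg6, Snhg8, Gas5, Snhg1, Snhg12, Snhg11, Neat1, Miat and Snhg3. By level per kb, the name abundant does not hold for all 10: of 21829 genes, Snhg11 ranked 10857, Neat1 12007, Miat 13399 and Snhg3 17934. By total value, Snhg11 ranked 8497, Neat1 6963, Miat 10626 and Snhg3 19140. Neighbours in this order did not overlap between libraries of the same group, except Snhg8 and Gas5 in shOGT, whose levels were 491 ± 42.0 and 456 ± 11.2 per kb.

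**Figure D2:**
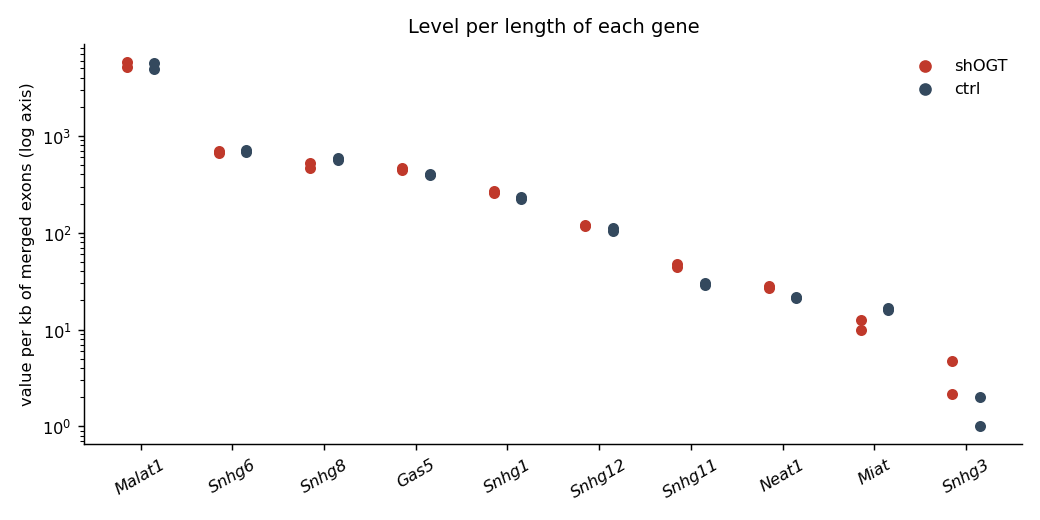
Deposited value per kilobase of merged exons of each gene on a log axis, by library (shOGT red, left; ctrl dark, right). Malat1 lies between 4899 and 5774 per kb, and the group means of the other genes run down to those of Snhg3, 3.47 per kb in shOGT and 1.51 per kb in ctrl.

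Malat1 (chr19:5795690-5802672, minus strand, GRCm38) and Neat1 (chr19:5824708-5845478, minus strand) are neighbouring genes. The 3′ ends of Malat1 and of the long form of Neat1 are made by cleavage before a tRNA-like structure rather than by a poly(A) signal. The genomically encoded A-rich tract that remains folds into a triple helix and stabilises the end. The 2 ends are printed because both hold the 10 bases AAAAGCAAAA, in capitals, found in the last 500 bases of 0.385% of 9603 noncoding genes. The search term was the last 10 bases of the long form of Neat1, so the match in Neat1 was fixed beforehand. Both genes count in that share. The longest run the 2 stretches share, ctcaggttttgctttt, is 16 bases long and lies upstream of that tract in both. The small RNA gene Gm27702, annotated directly downstream of Neat1, is printed last, without capitals.
Malat1, chr19:5795916-5796081, minus strand: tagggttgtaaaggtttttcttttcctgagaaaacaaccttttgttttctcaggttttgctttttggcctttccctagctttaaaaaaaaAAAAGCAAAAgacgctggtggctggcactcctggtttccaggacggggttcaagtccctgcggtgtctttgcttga
Neat1, chr19:5824708-5824787, minus strand: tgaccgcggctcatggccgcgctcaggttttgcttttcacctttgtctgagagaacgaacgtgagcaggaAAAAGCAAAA
Gm27702, chr19:5824652-5824707, minus strand: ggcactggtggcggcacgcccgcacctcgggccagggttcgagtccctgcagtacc

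Malat1 had values of 40321 and 36215 in shOGT, against 39556 and 34209 in ctrl, and was not called. The groups overlapped, and the 2 libraries within each group lay further apart than the group means. The log2 fold change was 0.05 ± 0.07 (SE, limma adjusted p = 0.713), and its 95% interval in folds ran from 0.937 to 1.15.

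Neat1 was higher in shOGT, at 560 and 589 against 442 and 446 in ctrl. Both shOGT libraries stood above both ctrl libraries. The log2 fold change was 0.37 ± 0.07 (SE, limma adjusted p = 0.0202), a fold of 1.29 with a 95% interval of 1.16 to 1.44. The call was lost without shOGT 1 (log2 fold change 0.41, limma adjusted p = 0.285) or without shOGT 2 (0.33, limma adjusted p = 0.289), when no gene at all was called. Of 14 paraspeckle proteins, which include the Neat1-binding proteins Nono and Sfpq, 1 was higher and 0 lower, with 1 higher and 3 lower at an unadjusted p under 0.05. Their median log2 fold change was -0.01. The one called, Smarca4, an ATPase of chromatin remodelling complexes, had 5116 and 4809 in shOGT, against 4258 and 4373 in ctrl. Nono had 7303 and 7083 in shOGT, against 7299 and 7610 in ctrl. The genes whose pattern over the 4 libraries was most like that of Neat1 were Ppip5k1 and Mipol1, whose largest difference from it was 0.0104 and 0.0165 on the log2 scale, out of 11074 candidates.

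Miat (chr5:112213228-112229395, minus strand), a nuclear RNA expressed in nervous tissue, had values of 116 and 92.4 in shOGT, against 150 and 157 in ctrl. Both shOGT libraries lay below both ctrl libraries. The log2 fold change was -0.56 ± 0.15 (SE, limma adjusted p = 0.0695), and the test was not passed. Miat holds repeats of ACTAAC, the branch point sequence bound by splicing factor SF1, in 11 matches over 9163 bases, a count reached by 2.33% of 129 noncoding transcripts of at least 5000 bases. A conserved stretch of it, annotated as Gm27627, is printed with its 4 matches in capitals.
Gm27627, chr5:112217318-112217467, minus strand: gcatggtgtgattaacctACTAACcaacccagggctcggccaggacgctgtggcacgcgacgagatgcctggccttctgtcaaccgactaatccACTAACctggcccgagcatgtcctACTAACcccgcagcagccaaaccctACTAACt
Of 13 speckle and Miat-binding splicing proteins, 0 were called by limma, with 3 higher and 1 lower at an unadjusted p under 0.05. Sf1 had values of 5073 and 4924 in shOGT, against 4886 and 4867 in ctrl. A lincRNA gene on the other strand, Gm26953, overlaps 24.3% of the exon bases of Miat and had at most 1.89 in any library.

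Gas5 and the Snhg genes hold 29 annotated snoRNA genes at 27 places: 10 in Gas5, 8 in Snhg1, 5 in Snhg12, 2 each in Snhg3 and Snhg11, and 1 each in Snhg6 and Snhg8. Box C/D snoRNAs carry a C box, TGATGA, near their start and a D box, CTGA, near their end; H/ACA snoRNAs end in ACA a few bases from the 3′ end. Both C and D boxes, in this order, were found in 8 of the 10 in Gas5, 6 of the 8 in Snhg1 and 1 of the 5 in Snhg12. The share over 1507 annotated snoRNA genes, which include H/ACA snoRNAs, was 24.0%. Overlapping entries, of Snord80 in Gas5 and of Snora16a in Snhg12, are each counted. An ACA in the last 10 bases was found in both of the 2 in Snhg3 and in Snhg11, and in 3 of the 5 in Snhg12. Its share over all snoRNA genes was not computed. Examples of each kind are printed with these boxes in capitals, as they show what the hosts encode besides their exons.
Snord47, chr1:161038082-161038158, plus strand: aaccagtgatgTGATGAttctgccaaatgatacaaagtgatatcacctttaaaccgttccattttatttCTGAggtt
Gm25855, chr19:8723993-8724064, plus strand: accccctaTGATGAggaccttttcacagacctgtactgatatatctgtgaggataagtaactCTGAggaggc
Snord87, chr1:9942463-9942549, minus strand: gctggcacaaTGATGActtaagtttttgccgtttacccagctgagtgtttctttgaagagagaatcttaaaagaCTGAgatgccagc
Snora24, chr3:123507937-123508066, minus strand: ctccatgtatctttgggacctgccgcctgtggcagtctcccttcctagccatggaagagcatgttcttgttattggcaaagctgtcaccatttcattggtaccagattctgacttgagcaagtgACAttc
Snora61, chr4:132310240-132310369, plus strand: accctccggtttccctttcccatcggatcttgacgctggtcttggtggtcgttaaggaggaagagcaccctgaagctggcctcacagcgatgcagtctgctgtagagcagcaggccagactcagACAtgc
Of the 29, 2 had a row in the files, Snord87 in Snhg6 and Gm25129 in Snhg11, with at most 1.06 and 2.13 in any library. Low values were common among small RNAs: the 198 snoRNA genes with a row had a median mean value of 2.44. The stable nuclear RNA Rn7sk had at most 24.9 in any library. Whether the libraries kept such RNAs was not tested.

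**Figure D3:**
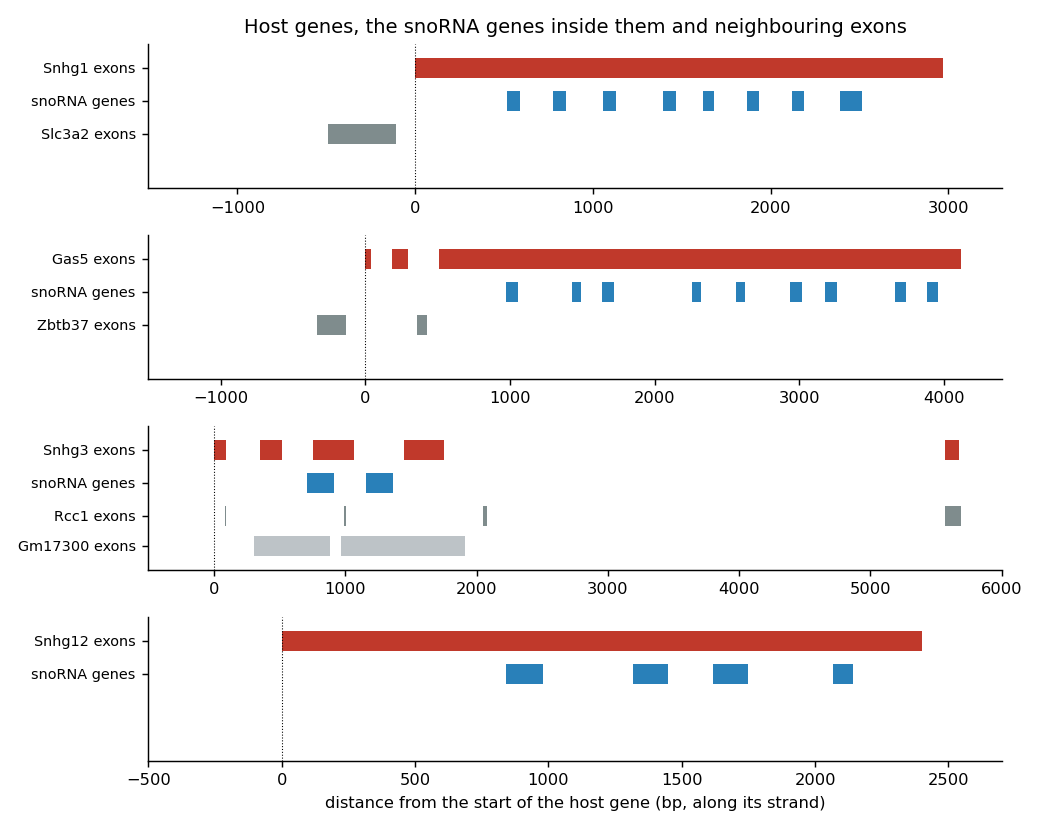
Merged exons of 4 host genes (red), snoRNA genes inside them (blue) and exons of neighbouring genes (grey) against distance in bp from the start of the host gene along its strand. Merged exons span the snoRNA genes in Snhg1, Gas5 and Snhg12. Slc3a2 starts 106 bp before Snhg1 on the other strand, and exons of Snhg3 overlap those of Rcc1 and Gm17300.

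The start sites of the hosts are printed because many snoRNA hosts begin with a C and a run of pyrimidines, the 5′ TOP feature of translation-related genes. Each run covers 50 bases before and 50 after the annotated RefSeq start (GRCm38.p6), with the first 10 bases from the start in capitals. Windows were searched for the 8 of the 10 genes that have one. A C with 4 further pyrimidines within 5 bases of the start was found for 1 of the 2 starts of Gas5, the one printed, and for Snhg3, Snhg8, Snhg12 and Miat, and not for Snhg1, Snhg11 and Malat1, against 18.3% of 32851 windows. On either strand of the 300 bases around the start, TGACGTCA, the binding motif of CREB, was found at the same start of Gas5 (1.79% of windows), TATAAA for Snhg1, Snhg3 and Snhg8 (13.6%), and CACGTG, an E-box, for none of the 8 (7.15%).
Gas5, chr1:161035116-161035215, plus strand: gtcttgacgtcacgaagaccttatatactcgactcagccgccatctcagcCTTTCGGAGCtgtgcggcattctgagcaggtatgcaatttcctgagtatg
Snhg1, chr19:8723437-8723536, plus strand: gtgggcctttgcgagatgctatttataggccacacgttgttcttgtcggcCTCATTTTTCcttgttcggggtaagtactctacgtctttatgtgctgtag
Snhg8, chr3:123508287-123508386, minus strand: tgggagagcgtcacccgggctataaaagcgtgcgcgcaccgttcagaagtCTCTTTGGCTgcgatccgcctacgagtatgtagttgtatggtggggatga
Snhg12, chr4:132308628-132308727, plus strand: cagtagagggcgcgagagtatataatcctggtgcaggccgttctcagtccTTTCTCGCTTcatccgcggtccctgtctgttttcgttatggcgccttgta

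Snhg11 (chr2:158375638-158386145, plus strand, annotated as protein coding in GENCODE), a host gene expressed in brain, was the member with the largest called difference. It had values of 380 and 405 in shOGT, against 244 and 257 in ctrl. The lowest shOGT library stood well above the highest ctrl library. The log2 fold change was 0.64 ± 0.09 (SE, limma adjusted p = 0.00515), a fold of 1.56 with a 95% interval of 1.36 to 1.80. The call was lost without shOGT 1 (log2 fold change 0.69, limma adjusted p = 0.285) or shOGT 2 (0.60, limma adjusted p = 0.288). Neuron markers were measured beside it: of Rbfox3, Tubb3, Dcx, Snap25, Syt1 and Map2, 1 of 6 was called higher and 0 lower, and their values summed to 17871 and 17658 in shOGT, against 15760 and 16292 in ctrl. Map2 made up nearly all of that sum, Dcx had 19.1 and 29.2 in shOGT against 40.9 and 66.5 in ctrl, and the part of neurons in the result was not tested. The genes most like Snhg11 over the 4 libraries were Sema5a, a guidance semaphorin, and Bsn, a presynaptic scaffold protein, with largest differences of 0.0309 and 0.0313 on the log2 scale.

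Gas5 (chr1:161034422-161038539, plus strand), a host gene first described in growth-arrested cells, had values of 1685 and 1745 in shOGT, against 1488 and 1519 in ctrl. Both shOGT libraries stood above both ctrl libraries. The log2 fold change was 0.19 ± 0.05 (SE, limma adjusted p = 0.0585), so the gene did not pass. Zbtb37, a zinc finger gene whose start overlaps that of Gas5 head to head by 427 bp with no shared exon base, had 920 and 969 in shOGT, against 783 and 847 in ctrl (limma adjusted p = 0.102). That overlap is counted from the outermost GENCODE start of Gas5, not from the RefSeq start printed above.

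Snhg1 (chr19:8723475-8726443, plus strand) had values of 768 and 799 in shOGT, against 664 and 692 in ctrl. The groups did not overlap, and the log2 fold change was 0.21 ± 0.06 (SE, limma adjusted p = 0.102). Its divergent neighbour Slc3a2, the heavy chain of amino acid transporters, was higher, at 4055 and 3987 in shOGT against 3361 and 3278 in ctrl (log2 fold change 0.28 ± 0.04, SE; limma adjusted p = 0.00599). The 2 genes share no exon bases.

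Snhg12 (chr4:132308623-132311024, plus strand) had values of 284 and 288 in shOGT, against 249 and 270 in ctrl. Both shOGT libraries were higher than both ctrl libraries, and the fold change on the log2 scale was 0.14 ± 0.09 (SE, limma adjusted p = 0.469). Snhg8 (chr3:123507552-123508404, minus strand) went the other way, with 393 and 444 in shOGT against 510 and 480 in ctrl. Both shOGT libraries lay below both ctrl libraries, and the log2 fold change was -0.24 ± 0.08 (SE, limma adjusted p = 0.152).

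Snhg6 (chr1:9941959-9944118, minus strand) had values of 805 and 756 in shOGT, against 822 and 779 in ctrl. The groups overlapped, and the log2 fold change was -0.04 ± 0.06 (SE, limma adjusted p = 0.822; 95% interval in folds 0.882 to 1.08). Snhg3 (chr4:132348014-132353686, minus strand) had values of 2.13 and 4.71 in shOGT, against 1.99 and 0.992 in ctrl, which are 2 and 5 steps against 2 and 1. No fold is given at this depth. Other annotated genes together cover 86.3% of the exon bases of Snhg3. They overlap in part: Gm17300 on the other strand covers 71.5%, the snoRNA gene Snora73a 16.1% and Rcc1, a chromatin-bound exchange factor, 13.7%, both on its own strand. Whether the authors' counting used strand is not given in the sources used here, so reads of these genes cannot be told apart where they overlap.

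Other genes of the same pathways were measured as lists. Of 10 further noncoding snoRNA hosts tested, 1 was higher and 0 lower, with a median log2 fold change of 0.06, and 3 were higher and 0 lower at an unadjusted p under 0.05. The one called was Zfas1, with 608 and 659 in shOGT against 517 and 500 in ctrl (log2 fold change 0.32 ± 0.07, SE; limma adjusted p = 0.0389). Of 29 protein-coding snoRNA hosts, 1 was higher and 5 lower, with a median of -0.04, and 3 were higher and 10 lower at an unadjusted p under 0.05. Both shOGT libraries lay below both ctrl libraries in 16 of the 29 and above them in 4, against 24.3% below and 25% above across all genes tested. Among the 11080 genes with a mean value of at least 100, 3556 lay below and 3093 above, and limma called 620 lower and 401 higher. At an unadjusted p under 0.05, 1906 of these 11080 were lower and 1501 higher. The translation factor Eif4a2 was higher, at 5604 and 5528 in shOGT against 4873 and 4958 in ctrl. The ribosomal protein gene Rpl13a was lower, at 439 and 432 in shOGT against 648 and 686 in ctrl (log2 fold change -0.61 ± 0.07, SE; limma adjusted p = 0.00242). Rpl23a, another ribosomal protein gene, and Tpt1, the translationally controlled tumour protein, were also lower, by log2 fold changes of -0.30 and -0.20. Ribosomal protein genes have many processed pseudogenes, so their values may be split between copies.

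Of 22 other long noncoding and stable nuclear RNAs, 0 were called by limma, with 1 higher and 2 lower at an unadjusted p under 0.05, and their median log2 fold change was -0.02. Of 19 snoRNP proteins and assembly factors, 0 were called by limma, with 2 higher and 2 lower at an unadjusted p under 0.05, and a median of -0.01. Fibrillarin, Fbl, the methyltransferase of box C/D particles, had 2445 and 2142 in shOGT, against 2296 and 2369 in ctrl. Of 18 nonsense-mediated decay factors, 0 were higher and 1 was lower, with a median of 0.03, and 0 were higher and 3 lower at an unadjusted p under 0.05. The one called was Pnrc2, which links Upf1 to decapping, with 1754 and 1753 in shOGT against 2161 and 2106 in ctrl (log2 fold change -0.28 ± 0.05, SE; limma adjusted p = 0.00984). Upf1 itself had 1887 and 1685 in shOGT, against 1642 and 1713 in ctrl.

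**Figure D4:**
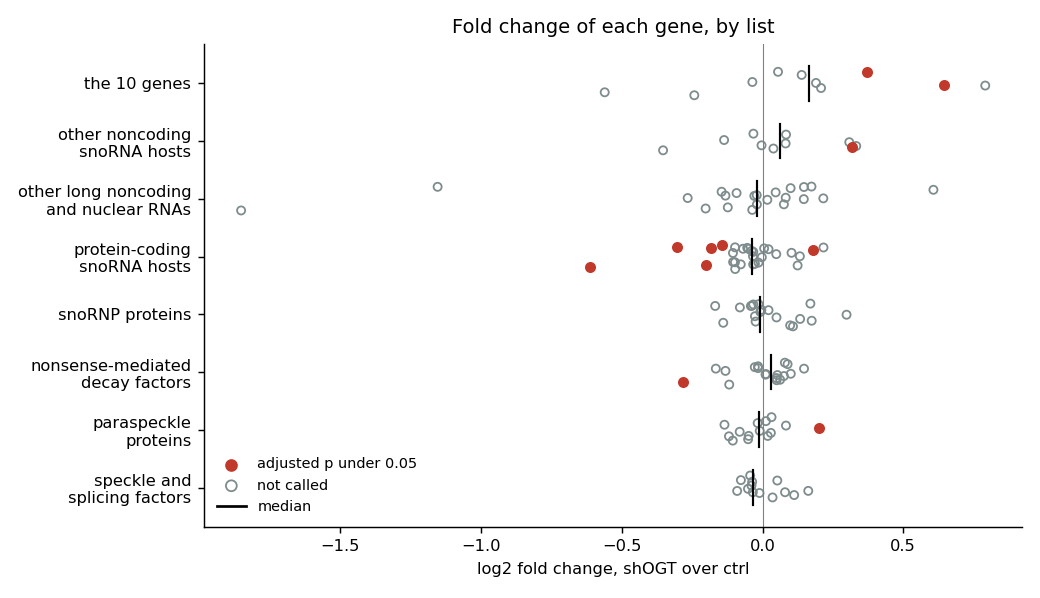
Log2 fold change, shOGT over ctrl, of each tested gene in the 10 genes and in 7 lists of related genes; filled points have an adjusted p under 0.05, open points do not, and vertical lines are medians. The medians of the 7 related lists lie between -0.04 and 0.06, and that of the 10 genes is 0.16.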

How the data were processed

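Total RNA was the material of the 2 shOGT and 2 ctrl libraries. How RNA was selected from it for sequencing is not described here, so values of RNAs without a poly(A) tail may not show their level. Per the labels, RNA was extracted with TRIzol; mm10 is the build in the submitters' processing notes. The deposited files hold 1 signal value per Ensembl gene, scaled by the authors in a way not given in the sources used here; aligner, counter and strand setting are likewise not given. Every value was a whole multiple of 1 step per library. Of 25261 identifiers, 25250 matched GENCODE M21. Values were tested as log2(value + 1) with limma 3.58.1 (R 4.3.3), with empirical Bayes and a variance trend, for genes of at least 1 in at least 2 libraries; p-values were Benjamini-Hochberg adjusted over all 21829. The script was tested on simulated data. Folds are on the log2(value + 1) scale, which understates low genes. Lengths are merged exons. All 10 genes were named; of each list, called genes were named by smallest p, and a few others were chosen after their values were seen. Genes and lists were chosen with earlier results of these data known. Sequences come from GENCODE M21 transcripts and, for start sites, RefSeq (GRCm38.p6). One item of the cell type marker lists is not reported here.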

Additional observations from a re-analysis of the deposited data

How the results depend on the processing

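Neat1 and Snhg11 kept their direction under all 16 alternatives and lost the call in 9 of them each, with limma adjusted p up to 0.351 and 0.315. The log2 fold changes of Malat1 and Snhg6 turned sign in some fits with 1 library left out. Malat1 was -0.0225 without shOGT 1 and -0.0498 without ctrl 2, and Snhg6 was 0.00881 without shOGT 2 and 0.0025 without ctrl 1. The sign was kept elsewhere, as with -0.0814 for Snhg6 without shOGT 1 and 0.16 for Malat1 without ctrl 1. With no filter on low values, with quantile normalization and with no variance trend, 0 genes were called higher, 0 lower and 0 of the 10 in limma, while 4302, 3998 and 2763 genes in either direction had an unadjusted p under 0.05. The prior degrees of freedom of limma were 2.36, 2.27 and 1.03 in these fits, and 7.38 as reported. Gas5 passed under 4 of the 16 alternatives and not under the other 12. The 4 were a pseudocount of 5, equal totals, a minimum of 10 in 2 libraries and the replicate number as a block. In that order its limma adjusted p was 0.0477, 0.0378, 0.0218 and 0.0118. A minimum of 10 in 2 libraries called 822 genes higher and 1133 lower, with 3 of the 10 higher and Miat as the 1 lower. Leaving out 1 library gave 0 to 573 genes higher, 0 to 660 lower, 0 to 3 of the 10 higher and 0 lower, with 0 whenever an shOGT library was left out or, in alternatives chosen after seeing the data, the genes of all 4 libraries were kept; 2484 to 3389 genes then had an unadjusted p under 0.05. A lone library was taken to vary like the other group. With the replicate number as a block, 1007 genes were higher and 1295 lower, and 4 of the 10 higher and 1 lower. The prior degrees of freedom were infinite in that fit and without ctrl 1 or ctrl 2. They were 14.8 with the minimum of 10, and 3.77 and 3.76 without ctrl 1 or ctrl 2 when the genes of all 4 libraries were kept. An infinite prior takes the spread of each gene wholly from the trend. Same-numbered libraries correlated at 0.0239 in their deviations. That low value shows no broad shift shared by same-numbered libraries, but it cannot show whether they were prepared together. Planned count tests were not run: all values were whole multiples of a step, but the ctrl steps lie so near 1 that whole reads were not accepted as recovered.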
